A study of Homo sapiens with 6 samples.

Results

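Cullin-RING ligase and COP9 signalosome genes were examined in SH-SY5Y cells, derived from a human neuroblastoma, after depletion of CSA or CSB. Members were the protein-coding genes whose symbols carry the names of cullins, DDB1, RBX1, COP9 signalosome subunits, DCAF proteins, KLHL proteins or the F-box families FBXL, FBXO and FBXW. They numbered 128 of the 32575 genes listed in any library. They comprised 10 genes of the ligase core (8 cullins, DDB1 and RBX1), 9 COP9 signalosome subunits, 16 DCAF, 33 KLHL, 17 FBXL, 34 FBXO and 9 FBXW genes. ERCC8, which encodes CSA and is itself a receptor of this family, was left out as the target of a hairpin. The rule itself uses names, and it was set with earlier results of these data known.

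The groups were a CSA knockdown, a CSB knockdown and a control, with 2 libraries each. Per the labels' protocols, all cells received lentivirus carrying a short hairpin RNA (against CSA, CSB or a control), puromycin selection in DMEM/F12 and 2 to 3 weeks of culture. The genotype labels call the depleted cells mutants and the controls WT, although the protocols describe hairpins in every group. The labels do not say whether a group's libraries are separate transductions or clones, nor how many hairpins were used per gene, so the spread behind each p-value is that among these libraries and may be technical. ERCC8 had scaled counts of 61.8 and 57.2 in CSA-depleted cells and 219 and 217 in control cells (log2 fold change -1.86 ± 0.13, adjusted p = 8.75e-07). ERCC6, which encodes CSB, had 258 and 302 in CSB-depleted cells and 615 and 593 in control cells (log2 fold change -1.11 ± 0.08, adjusted p = 2.13e-06). The 2 comparisons with control share the control libraries, so their values are given side by side only.

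Depth ran from 19368272 to 26758162 gene-assigned reads per library. The scaled count used throughout is a gene's reads divided by a size factor for the library. All 15 noradrenergic neuroblast markers were present in every group. Their sum stood at 165908 to 173470 in CSA-depleted cells, 147952 to 149377 in CSB-depleted cells and 152561 to 156635 in control cells. Against control, 5 were higher and 6 lower in CSA-depleted cells, and 5 higher and 5 lower in CSB-depleted cells. TH, the rate-limiting enzyme of catecholamine synthesis, was close to 0 (5.42 and 2.86 in CSA-depleted cells, 8.81 and 11.6 in CSB-depleted cells and 13.9 and 20.3 in control cells in the CSA, CSB and control libraries). Summed mesenchymal and fibroblast markers moved with the groups, at 21339 to 21342 in CSA-depleted cells, 52849 to 54129 in CSB-depleted cells and 35576 to 36888 in control cells. Of these 17 genes, 8 were lower in CSA-depleted cells than in control cells, and 8 were higher and 2 lower in CSB-depleted cells. Summed G2/M genes stood at 43290 to 45439 in CSA-depleted cells, 71383 to 72604 in CSB-depleted cells and 68996 to 69511 in control cells. All 20 were lower in CSA-depleted cells. Over all genes tested, 8.37% were higher and 10.4% lower in CSA-depleted cells, and 14.8% higher and 8.86% lower in CSB-depleted cells. Among protein-coding genes that averaged 50 scaled counts or more, these shares were 16.2% and 21.2% for CSA, and 28.2% and 18.6% for CSB. Schwann cell markers summed to at most 151 in any library. One blood marker, HBB, had a scaled count of 373 in control replicate 2 and none elsewhere, while LYZ and PTPRC reached at most 3.30 and 3.86. The part of these marker shifts in the results that follow was not tested, and in bulk samples fewer cells of a type and less RNA per cell cannot be told apart.

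Cullin-RING ligases attach ubiquitin to chosen proteins. A cullin scaffold holds a RING protein, usually RBX1, at one end, and at the other an adaptor and an exchangeable receptor that recognises the substrate. CUL1 takes F-box receptors through SKP1, CUL3 takes BTB proteins such as the KLHL family directly, CUL4A and CUL4B take DCAF receptors through DDB1, and CUL2 and CUL5 take VHL-box and SOCS-box receptors through the elongins. CSA is such a CUL4-DDB1 receptor and acts with CSB when RNA polymerase II stalls at DNA damage. Conjugation of NEDD8 switches the cullin on, and the COP9 signalosome removes it, with COPS5 as its catalytic subunit. The series was made to show which transcripts are regulated by CSA and by CSB in a neuroblastoma line.

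Of the 128 members, 124 reached the test, which required at least 1 group to average 1 scaled count or more. The other 4 (DCAF4L2, DCAF8L2, KLHL33 and KLHL38) had at most 1 read in any library. A further 14 had mean scaled counts under 50, so that few reads stand behind their values.

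Divided by gene length, the core and the COP9 signalosome were more abundant than most receptors. In mean scaled counts per kilobase, the core had a median of 218 in CSA-depleted cells, 215 in CSB-depleted cells and 239 in control cells. The COP9 signalosome had a median of 299.5 in CSA-depleted cells, 262 in CSB-depleted cells and 328 in control cells. The 105 tested receptors had 107 in CSA-depleted cells, 118 in CSB-depleted cells and 106 in control cells. Within the core, CUL1 had 735 ± 16.1 per kilobase in CSA-depleted cells, 523 ± 18.9 in CSB-depleted cells and 721 ± 16.6 in control cells (SD, n = 2 each). DDB1 had 610.4 ± 1.5 in CSA-depleted cells, 490.5 ± 14.6 in CSB-depleted cells and 611 ± 11.2 in control cells. CUL3 had 109 ± 2.35 in CSA-depleted cells, 102 ± 6.31 in CSB-depleted cells and 108 ± 13.8 in control cells. Per kilobase, CUL1 was therefore the highest cullin and CUL3 the lowest in control cells. In CSB-depleted cells CUL2 was the lowest per kilobase at 99.4 ± 1.37, within the spread of CUL3. Without division by length, CUL2 had a lower mean scaled count than CUL3 in control cells, at 814 against 1244.6. In the COP9 signalosome, COPS6 and GPS1 stood above the other subunits at 1396 ± 13.9 and 939 ± 10.6 per kilobase in control cells. COPS5 was the lowest per kilobase at 124 ± 1.54. These rankings rest on the deposited gene lengths. Without division by length, COPS4 lay below COPS5 in control cells, with mean scaled counts of 615 and 966. Among receptors DCAF7, a scaffold for DYRK and HIPK kinases, was the highest of all members, at 1973 ± 29.6 per kilobase in CSA-depleted cells, 1917 ± 88.7 in CSB-depleted cells and 1812 ± 20.1 in control cells. Its level did not pass the test in either comparison with control (log2 fold change 0.12 ± 0.05 for CSA and 0.08 ± 0.05 for CSB).

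In CSB-depleted cells the ligase core fell more often than it rose. Of the 10 core genes, 5 were lower (CUL1, CUL2, CUL4A, CUL5 and DDB1) and 2 higher (CUL7 and CUL9), with a median log2 fold change of -0.24. Of the 9 COP9 subunits, 3 were lower (COPS3, COPS7B and COPS8) and 1 higher (GPS1), with a median of -0.12. Among all 28388 genes tested, 8.86% were called lower and 14.8% higher in this comparison, and the median log2 fold change was 0.10. Core genes are well expressed, and among protein-coding genes that averaged 50 scaled counts or more the shares were 18.6% lower and 28.2% higher. The median of all genes in this comparison depended on scaling: it was 0.10 with the deposited size factors, 0.03 with TMM scaling (trimmed mean of M values) and -0.01 with a gene length trend removed. Both class medians stayed below 0 under every scaling run. Leaving out 1 library gave 2 to 5 lower and 1 to 2 higher core genes, and 2 to 4 lower and 0 to 1 higher COP9 subunits.

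CUL2 (hg38 chr10:35008551-35090642, minus strand), the scaffold of VHL-type ligases, had scaled counts of 506 and 516 in the CSB knockdown libraries and 819.6 and 808 in control cells (log2 fold change -0.67 ± 0.07, adjusted p = 2.76e-05). The CSA knockdown libraries had 799 and 710.5 and did not differ from control by the test (log2 fold change -0.11 ± 0.07, adjusted p = 0.333). CUL1 (chr7:148697914-148801036, plus strand), the scaffold of SCF ligases, had 1807 and 1902 in CSB-depleted cells and 2600.0 and 2517 in control cells (log2 fold change -0.46 ± 0.05, adjusted p = 4.44e-05), with 2649 and 2568 in CSA-depleted cells (log2 fold change 0.03 ± 0.05, adjusted p = 0.775). In both genes the CSB knockdown libraries lay below all 4 others without overlap.

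DDB1 (chr11:61299451-61342596, minus strand), the adaptor between CUL4 and its receptors, CSA included, had 6698 and 6986 in CSB-depleted cells and 8418 and 8638 in control cells (log2 fold change -0.32 ± 0.05, adjusted p = 0.000381). Its CSA knockdown values of 8499.9 and 8529.6 lay within the range of the controls, and the 95% interval of that log2 fold change was -0.11 to 0.10. The DDB1 call in CSB-depleted cells was lost without control replicate 2 (adjusted p = 0.0573). CUL5, the scaffold for SOCS-box receptors, had 849 and 896 in CSB-depleted cells and 1022 and 1071 in control cells (log2 fold change -0.26 ± 0.06, adjusted p = 0.00679), and its CSA knockdown values of 1146 and 1110.1 were not called.

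CUL4A, 1 of the paired scaffolds that hold DDB1, was lower in both knockdowns, with 2015 and 1867 in CSA-depleted cells, 1854 and 1915 in CSB-depleted cells and 2239 and 2236 in control cells (log2 fold change -0.21 ± 0.05 for CSA, adjusted p = 0.0199, and -0.25 ± 0.05 for CSB, adjusted p = 0.00558). All 4 knockdown libraries lay below both controls. Its paralogue CUL4B had 1469 and 1295 in CSA-depleted cells, 1372 and 1440.5 in CSB-depleted cells and 1406 and 1488 in control cells and was not called in either comparison, with 95% intervals of -0.22 to 0.08 for CSA and -0.19 to 0.11 for CSB.

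CUL7, which works with FBXW8 and is mutated in a growth disorder (3M syndrome), was higher in both knockdowns, with 1998 and 2061 in CSA-depleted cells, 2156 and 2338 in CSB-depleted cells and 1670.0 and 1603 in control cells (log2 fold change 0.31 ± 0.06 for CSA, adjusted p = 0.00202, and 0.46 ± 0.06 for CSB, adjusted p = 9.76e-05). CUL9, a cytoplasmic p53-binding cullin, had 1806 and 2043 in CSA-depleted cells, 1895 and 1874 in CSB-depleted cells and 1679 and 1620.5 in control cells (log2 fold change 0.22 ± 0.06 for CSA and 0.19 ± 0.06 for CSB). The CUL9 call in CSA-depleted cells was lost without CSA replicate 2, either CSB library or either control (highest adjusted p 0.285), and with only the groups compared in the fit. That in CSB-depleted cells was lost without either CSB library or either control (highest adjusted p 0.316), and under TMM, upper quartile or length-corrected scaling, with a pseudocount of 0.5, with no filter or by edgeR or DESeq2. CUL3 and RBX1 were not called in either comparison. RBX1 had 696 and 785 in CSA-depleted cells, 759 and 666 in CSB-depleted cells and 809.6 and 871 in control cells (log2 fold change -0.18 ± 0.08, adjusted p = 0.158 for CSA and log2 fold change -0.24 ± 0.08, adjusted p = 0.054 for CSB).

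COPS3 (chr17:17246820-17281293, minus strand) showed the largest change of any COP9 subunit. It had 907 and 926 in CSB-depleted cells and 1373 and 1383 in control cells (log2 fold change -0.59 ± 0.06, adjusted p = 1.46e-05), with 1429 and 1341 in CSA-depleted cells (log2 fold change 0.01 ± 0.06, adjusted p = 0.977). COPS7B had 840.1 and 868 in CSB-depleted cells and 1179 and 1130.5 in control cells (log2 fold change -0.43 ± 0.06, adjusted p = 0.000144). Both fell below all 4 other libraries.

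COPS7A is the paralogue that can take the place of COPS7B in the complex. It had 1277 and 1254 in CSA-depleted cells, 1069 and 1171 in CSB-depleted cells and 1054 and 1069 in control cells. It was higher in CSA-depleted cells (log2 fold change 0.25 ± 0.06, adjusted p = 0.0112) and not called in CSB-depleted cells (log2 fold change 0.08 ± 0.06, adjusted p = 0.435). COPS8 had 1286 and 1199.6 in CSB-depleted cells and 1582 and 1532 in control cells (log2 fold change -0.33 ± 0.06, adjusted p = 0.00184). GPS1, the subunit also called CSN1, had 6662 and 6343 in CSB-depleted cells and 5735 and 5827 in control cells (log2 fold change 0.17 ± 0.05, adjusted p = 0.0224). The GPS1 call was lost without CSA replicate 2, either CSB library or either control (highest adjusted p 0.178), and under TMM, upper quartile or length-corrected scaling, with only the groups compared in the fit or by edgeR or DESeq2. Of its exon bases, 13.6% are shared with RFNG on the other strand. COPS2, COPS4, COPS5 and COPS6 passed in neither comparison. COPS5, the deneddylase, had 982 and 1064 in CSA-depleted cells, 993 and 870.4 in CSB-depleted cells and 975 and 958 in control cells.

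The falls of CUL1, CUL2, COPS3 and COPS7B in CSB-depleted cells passed in every alternative run, with adjusted p of at most 0.0385, 0.0472, 0.0355 and 0.0404 when any 1 of the 6 libraries was left out. Those of CUL4A, CUL5 and COPS8 were lost when either control or either CSB library was left out (highest adjusted p 0.13, 0.115 and 0.11). In CSA-depleted cells, the call of CUL4A was lost without CSA replicate 2, either CSB library or either control (highest adjusted p 0.194), and with only the groups compared in the fit. The CUL7 call there was lost without CSA replicate 2 or either control (highest adjusted p 0.117). The COPS7A call was lost without either CSA library or either control (highest adjusted p 0.169).

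**Figure D1:**
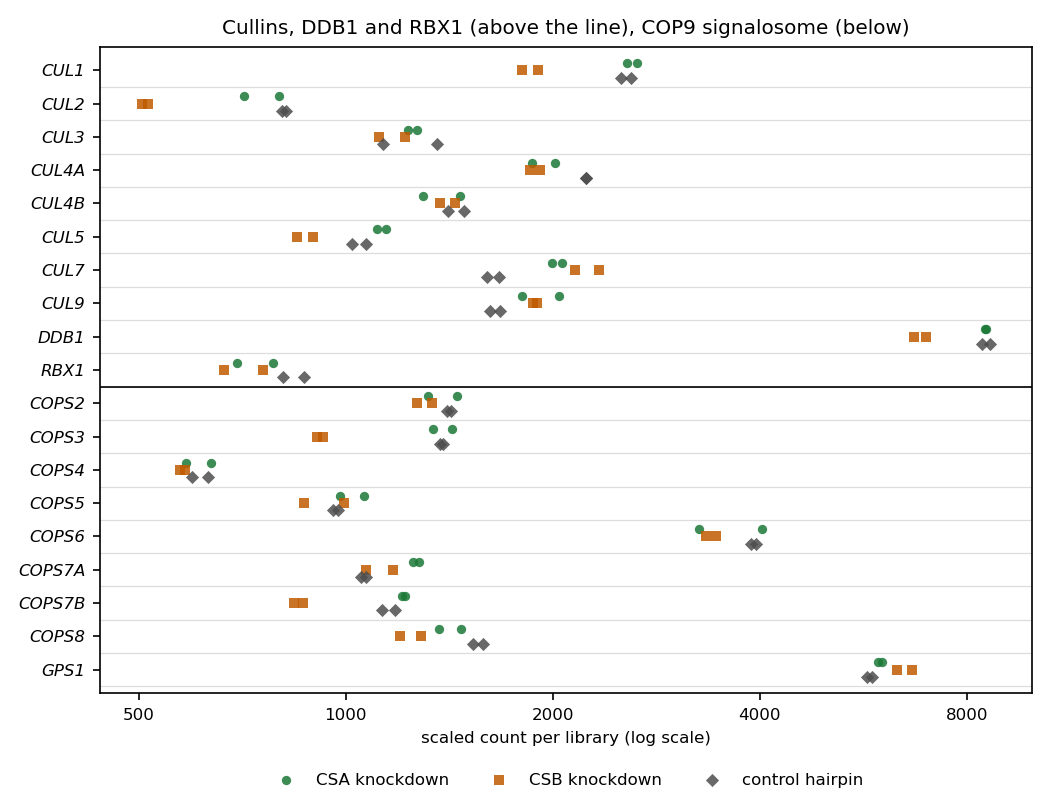
Scaled counts (log axis) of the 10 core genes and 9 COP9 signalosome subunits in each library, with CSA knockdown as circles, CSB knockdown as squares and control as diamonds. The CSB knockdown squares of CUL1, CUL2, COPS3 and COPS7B lie left of all other points of the same gene, while those of CUL7 lie to the right.

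The stretches upstream of the COPS3 and CUL2 starts are shown because these are the most reduced COP9 subunit and cullin of CSB-depleted cells. They come from RefSeq on GRCh38.p14, read 5′ to 3′ on the strand of the gene, and stop where the deposited gene model begins. COPS3 is at chr17:17281294-17281496, minus strand, and CUL2 at chr10:35090643-35090864, minus strand.
COPS3: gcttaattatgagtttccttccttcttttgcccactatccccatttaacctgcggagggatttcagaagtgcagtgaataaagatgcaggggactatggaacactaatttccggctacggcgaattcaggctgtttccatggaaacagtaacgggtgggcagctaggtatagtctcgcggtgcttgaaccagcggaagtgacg
CUL2: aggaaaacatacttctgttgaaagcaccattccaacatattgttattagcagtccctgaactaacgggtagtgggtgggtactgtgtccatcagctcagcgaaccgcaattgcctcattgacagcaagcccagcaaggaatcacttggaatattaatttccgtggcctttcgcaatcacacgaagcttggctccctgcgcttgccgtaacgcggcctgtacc

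Promoter entries were at hand for 104 of the 128 members. The 250 bases upstream were searched on both strands for CCGGAAG (the core bound by ETS factors), CCAAT (bound by NF-Y), CACGTG (an E-box) and GATGGCG (the core bound by YY1). Each motif was searched separately, and overlap between their sites was not examined. CCGGAAG was found in 16 of the 104 (15.4%), against 8.82% of all 27305 promoters in the table. CCAAT was in 28.8% against 33.0%, CACGTG in 7.69% against 6.49%, and GATGGCG in 4.81% against 2.38%. The 27305 promoters were not filtered by gene type or expression, whereas the members are protein-coding, so these shares come from unlike sets. None of the 4 was found in the COPS3 and CUL2 stretches, which says only that these letters are not in those windows.

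Genes that act on the core were counted from a list of 15 neddylation and exchange genes. In CSB-depleted cells 6 were lower and 2 higher, with a median log2 fold change of -0.10. The shares over all genes were 8.86% lower and 14.8% higher, and over well-expressed protein-coding genes 18.6% and 28.2%. NEDD8 itself had 665 and 629 in CSB-depleted cells and 880.3 and 965 in control cells (log2 fold change -0.51 ± 0.07, adjusted p = 0.000137), and 891 and 901 in CSA-depleted cells (log2 fold change -0.04 ± 0.07, adjusted p = 0.742). CAND1, which exchanges receptors on CUL1, had 3646 and 3495 in CSA-depleted cells, 3166 and 3294 in CSB-depleted cells and 4016 and 4037 in control cells (log2 fold change -0.17 ± 0.05 for CSA, adjusted p = 0.0278, and -0.32 ± 0.05 for CSB, adjusted p = 0.0005). The co-E3 genes for NEDD8 transfer fell for DCUN1D1, DCUN1D4 and DCUN1D5 in CSB-depleted cells (log2 fold change -0.29, -0.24 and -0.37), as did NAE1, a subunit of the NEDD8-activating enzyme (-0.19). DCUN1D2 went the other way, with 1157 and 1219 in CSB-depleted cells and 967 and 935 in control cells (log2 fold change 0.32 ± 0.06, adjusted p = 0.00229), and was lower in CSA-depleted cells at 638 and 607 (log2 fold change -0.61 ± 0.06, adjusted p = 2.23e-05). In CSA-depleted cells 3 of the 15 were lower, where 10.4% of all genes and 21.2% of well-expressed protein-coding genes were. The CSB calls of NEDD8 were lost without CSB replicate 2 (adjusted p = 0.0589), of CAND1 without CSB replicate 1 or either control (highest adjusted p 0.0573), and of NAE1 without CSA replicate 2, either CSB library or either control (highest adjusted p 0.177), and with only the groups compared in the fit. Those of DCUN1D1 and DCUN1D2 were lost without either CSB library or either control (highest adjusted p 0.19 and 0.0844), and that of DCUN1D4 without CSB replicate 1 or either control (highest adjusted p 0.0911). The CSA call of CAND1 was lost without CSA replicate 2, either CSB library or either control (highest adjusted p 0.198), and under upper quartile scaling or with only the groups compared in the fit.

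Of 14 listed adaptors and ubiquitin-transfer partners, 3 were higher and 5 lower in CSB-depleted cells, and 2 were higher and 1 lower in CSA-depleted cells. Of all genes, 14.8% were higher and 8.86% lower in CSB-depleted cells, and 8.37% higher and 10.4% lower in CSA-depleted cells. Of well-expressed protein-coding genes, 28.2% were higher and 18.6% lower in CSB-depleted cells, and 16.2% higher and 21.2% lower in CSA-depleted cells. The elongin C gene, listed as TCEB1, had 1556 and 1334 in CSB-depleted cells and 1708 and 1834 in control cells (log2 fold change -0.30 ± 0.07, adjusted p = 0.0105). UBE2D1, an E2 enzyme, had 439 and 412 in CSB-depleted cells and 564 and 663 in control cells (log2 fold change -0.52 ± 0.11, adjusted p = 0.00304). The TCEB1 call was lost when any 1 of the 6 libraries was left out (highest adjusted p 0.248), and with only the groups compared in the fit. The UBE2D1 call was lost without CSA replicate 2, either CSB library or either control (highest adjusted p 0.249). SKP1, the adaptor of every F-box receptor, had 2382 and 2181 in CSA-depleted cells, 2184 and 2057 in CSB-depleted cells and 2134 and 2291 in control cells and passed in neither comparison.

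Across all members, CSA-depleted cells had 20 higher and 19 lower than control, 31.5% of the 124 tested. Over all genes tested the background was 18.8% called, with 8.37% higher and 10.4% lower. Over protein-coding genes it was 30.2%. Over those that averaged 50 scaled counts or more it was 37.4% (16.2% higher and 21.2% lower), and 35.5% of the members at that level were called. CSB-depleted cells had 31 members higher and 17 lower, 38.7%, where 23.6% of all genes, 37.6% of protein-coding genes and 46.9% of well-expressed protein-coding genes were called. At that level 43.6% of members were called. In both comparisons the members' share was thus close to that of protein-coding genes at large. Members called higher, called lower and not called in CSB-depleted cells had median genomic spans of 43.3, 58.9 and 35.1 kb. For CSA-depleted cells these spans were 47.1, 48.5 and 34.75 kb. The median was 41.2 kb over all members tested and 31.7 kb over all protein-coding genes tested.

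By receptor class, CSA-depleted cells had 1 DCAF gene higher and 2 lower of 14 tested, 3 KLHL genes higher and 6 lower of 31, and 13 F-box genes higher and 10 lower of 60. The medians were 0.10 for DCAF, -0.08 for KLHL and 0.04 for F-box genes. In CSB-depleted cells, 4 DCAF genes were higher and 4 lower, 8 KLHL genes higher and 4 lower, and 16 F-box genes higher and 1 lower, with medians of 0.08, 0.10 and 0.16, where all genes had 0.10. The DCAF median changed sign under other scalings, to -0.01 with the length correction and by edgeR and -0.03 by DESeq2, and the KLHL counts became 3 higher and 5 lower by DESeq2. Leaving out 1 library gave 2 to 9 higher and 3 to 8 lower F-box genes, 1 to 3 higher and 3 to 5 lower KLHL genes and 0 to 1 higher and 0 to 2 lower DCAF genes in CSA-depleted cells. In CSB-depleted cells it gave 2 to 6 higher and 1 to 4 lower KLHL genes and 0 to 4 higher and 1 to 4 lower DCAF genes. The 1 F-box fall in CSB-depleted cells made up 1.67% of the 60. Of all genes 8.86% were lower there, of protein-coding genes tested 14.8% and of the well-expressed 18.6%. The 16 F-box rises were 7 FBXL, 6 FBXO and 3 FBXW genes. They made up 26.7% of the 60, where 22.8% of protein-coding genes tested and 28.2% of the well-expressed were higher. Their number depended on scaling: TMM gave 11 higher and 3 lower, upper quartile scaling 13 and 1, a length correction 10 and 5, edgeR 13 and 4 and DESeq2 8 and 3, and leaving out 1 library gave between 1 and 17 higher. The share of all member calls that were higher in CSB-depleted cells was 64.6% as deposited, 47.7% with TMM, 54.5% with upper quartile scaling, 43.2% with the length correction, 51.0% by edgeR and 37.8% by DESeq2.

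**Figure D2:**
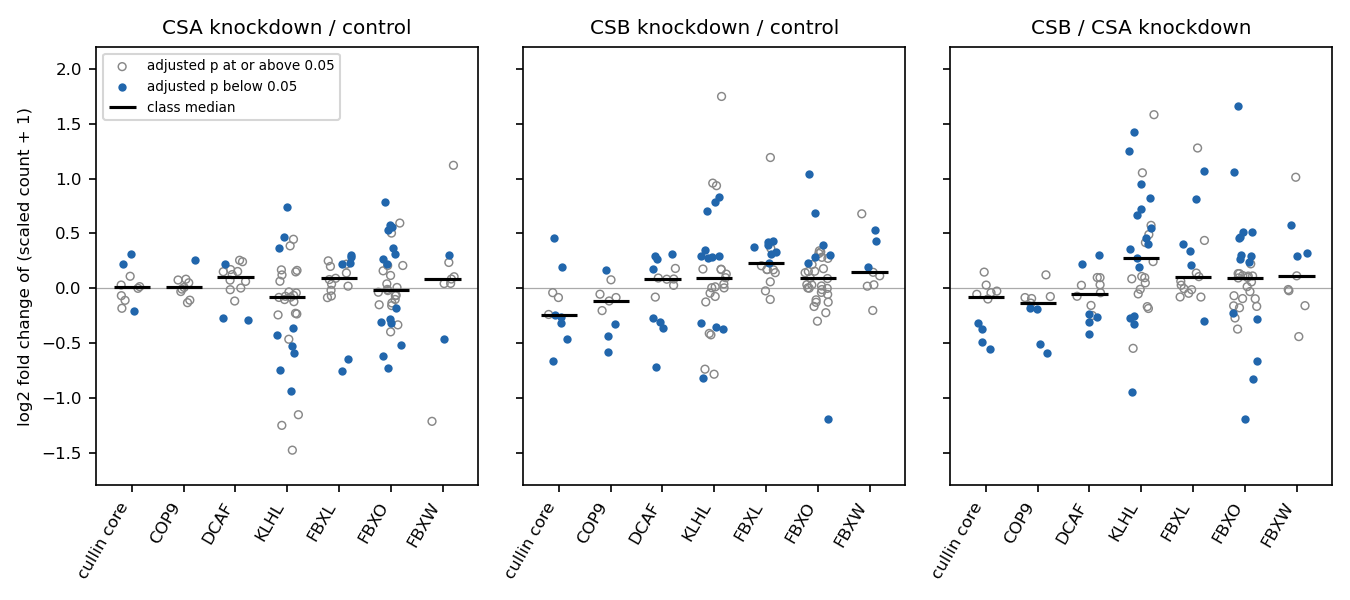
Log2 fold changes of each tested member by class for CSA knockdown over control, CSB knockdown over control and CSB over CSA knockdown; filled points passed an adjusted p of 0.05 and bars are class medians. The core and COP9 medians lie below 0 in CSB-depleted cells (-0.24 and -0.12), and most filled F-box points in that panel lie above 0.

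Among DCAF receptors, DCAF12 (chr9:34086387-34127399, minus strand), which recognises C-terminal glutamate degrons, fell in both knockdowns. It had 1706 and 1609 in CSA-depleted cells, 1247 and 1225 in CSB-depleted cells and 2014 and 2051 in control cells. For DCAF12 the log2 fold change was -0.29 ± 0.05 for CSA (adjusted p = 0.00204) and -0.72 ± 0.05 for CSB (adjusted p = 2.13e-06). The 3 groups did not overlap, and CSB-depleted cells were also below CSA-depleted cells (log2 fold change -0.42 ± 0.05, adjusted p = 6.93e-05). DCAF8 was higher in both, with 1613 and 1758 in CSA-depleted cells, 1808 and 1790.3 in CSB-depleted cells and 1475 and 1424 in control cells (log2 fold change 0.22 ± 0.06 for CSA, adjusted p = 0.0201, and 0.31 ± 0.06 for CSB, adjusted p = 0.00173). Of DCAF8 exon bases, 30.0% are shared with AL139011.2, a protein-coding entry on the same strand that averaged 0.333 reads per library. The DCAF12 call in CSA-depleted cells was lost without CSB replicate 2 or either control (highest adjusted p 0.0897). The DCAF8 call for CSA was lost without CSA replicate 2, either CSB library or either control (highest adjusted p 0.22), and with only the groups compared in the fit. The one for CSB was lost without either CSB library or either control (highest adjusted p 0.106).

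DCAF13, which serves pre-ribosomal RNA processing, DCAF6, a coactivator of nuclear receptors, and DCAF4 were lower in CSB-depleted cells. DCAF13 had 1557 and 1436 in CSB-depleted cells and 1814 and 1807 in control cells (log2 fold change -0.28 ± 0.06, adjusted p = 0.004). DCAF6 had 417 and 409 in CSB-depleted cells and 519 and 506 in control cells (log2 fold change -0.31 ± 0.07, adjusted p = 0.00624). DCAF4 had 187 and 189.8 in CSB-depleted cells and 232 and 256 in control cells (log2 fold change -0.37 ± 0.10, adjusted p = 0.0158). Each lay below both controls. The calls of DCAF13 and DCAF6 were lost without either CSB library or either control (highest adjusted p 0.116 and 0.0854), and that of DCAF4 without CSA replicate 2, either CSB library or either control (highest adjusted p 0.123). DCAF10, DCAF15, which molecular glue drugs turn against RBM39, and DCAF5 rose by 0.29, 0.27 and 0.18 on the log2 scale in CSB-depleted cells, and DCAF11 was lower in CSA-depleted cells (log2 fold change -0.27 ± 0.07, adjusted p = 0.0133). The DCAF10 call was lost without either control (highest adjusted p 0.0641). The DCAF11 call was lost without either CSA library or either control (highest adjusted p 0.191). The DCAF15 call was lost without CSA replicate 2, either CSB library or either control (highest adjusted p 0.143), and under length-corrected scaling or by DESeq2. The DCAF5 call was lost without CSA replicate 2, either CSB library or either control (highest adjusted p 0.283), and under TMM, upper quartile or length-corrected scaling, with no filter, with the replicate block or by edgeR or DESeq2.

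Other CUL4 receptors, listed outside the naming rule, were also measured. DDB2, the damaged-DNA sensor of global genome repair, had 620.0 and 604 in CSA-depleted cells, 1302 and 1376 in CSB-depleted cells and 858 and 845 in control cells. For DDB2 the log2 fold change was -0.48 ± 0.06 for CSA (adjusted p = 0.000131) and 0.65 ± 0.06 for CSB (adjusted p = 9.43e-06). DTL, the receptor that destroys CDT1 in S phase, fell in both, with 1536 and 1451 in CSA-depleted cells, 1295 and 1318 in CSB-depleted cells and 2205 and 2274 in control cells. For DTL the log2 fold change was -0.58 ± 0.05 for CSA (adjusted p = 1.15e-05) and -0.78 ± 0.05 for CSB (adjusted p = 1.17e-06). Of the 9 genes tested in that list, 3 were higher and 3 lower in CSA-depleted cells, and 4 higher and 3 lower in CSB-depleted cells. The share called either way was 18.8% of all genes and 37.4% of well-expressed protein-coding genes for CSA, and 23.6% and 46.9% for CSB.

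KLHL receptors gave CSA-depleted cells their largest fall among members past the test. KLHL2 (chr4:165207618-165323156, plus strand), which targets WNK kinases, had 271 and 263 in CSA-depleted cells and 477 and 549 in control cells (log2 fold change -0.94 ± 0.09, adjusted p = 1.22e-05). CSB-depleted cells had 541 and 493, which overlapped the control range (95% interval of the log2 fold change -0.18 to 0.20). KLHL8 was lower in both knockdowns, at 506 and 526 in CSA-depleted cells, 617 and 634 in CSB-depleted cells and 765 and 797 in control cells. For KLHL8 the log2 fold change was -0.60 ± 0.07 for CSA (adjusted p = 4.31e-05) and -0.32 ± 0.07 for CSB (adjusted p = 0.00336). Its CSB call was lost without either CSB library or either control (highest adjusted p 0.0792).

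KLHL11 was lower in CSA-depleted cells, at 128 and 106 against 180.0 and 213 in control cells (log2 fold change -0.75 ± 0.13, adjusted p = 0.00168), a call lost without CSA replicate 2, either CSB library or either control (highest adjusted p 0.12), and with only the groups compared in the fit. KLHL42, the CUL3 receptor for the microtubule-severing protein katanin, was higher there, at 1717 and 1607 in CSA-depleted cells and 1309.9 and 1270.3 in control cells (log2 fold change 0.36 ± 0.06, adjusted p = 0.00059), and KLHL28 was higher in both knockdowns, at 521 and 454 in CSA-depleted cells, 409.6 and 446 in CSB-depleted cells and 353 and 352 in control cells. The KLHL42 call was lost without either control (highest adjusted p 0.0678). The KLHL28 call in CSA-depleted cells (log2 fold change 0.46 ± 0.09, adjusted p = 0.00224) was lost without CSA replicate 1, either CSB library or either control (highest adjusted p 0.121), and with only the groups compared in the fit. Its call in CSB-depleted cells (log2 fold change 0.28 ± 0.09, adjusted p = 0.0353) was lost without CSA replicate 2, either CSB library or either control (highest adjusted p 0.304), and under TMM, upper quartile or length-corrected scaling, with only the groups compared in the fit or by edgeR or DESeq2.

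KLHL29 (chr2:23385217-23708611, plus strand) was the KLHL gene with the largest rise in CSA-depleted cells and was also higher in CSB-depleted cells. It had 1093 and 1162 in CSA-depleted cells, 1165 and 1243 in CSB-depleted cells and 685 and 667 in control cells. For KLHL29 the log2 fold change was 0.74 ± 0.06 for CSA (adjusted p = 5.63e-06) and 0.83 ± 0.06 for CSB (adjusted p = 2.05e-06). All 4 knockdown libraries lay above both controls, and the knockdowns did not differ from each other by the test (95% interval of the log2 fold change of CSB over CSA knockdown -0.04 to 0.23).

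In CSB-depleted cells, KLHL13 (chrX:117897813-118117340, minus strand), a mitotic CUL3 receptor that works with KLHL9 on Aurora B, had 1542 and 1601, against 2702 and 2867 in control cells (log2 fold change -0.82 ± 0.07, adjusted p = 3.5e-06). CSA-depleted cells had 3243 and 2822 (log2 fold change 0.12 ± 0.07, adjusted p = 0.264), so the CSB libraries stood below all 4 others. KLHL9 was not called, at 1443 and 1387 in CSA-depleted cells, 1366 and 1442 in CSB-depleted cells and 1459 and 1439 in control cells. KLHL24 (chr3:183635568-183684477, plus strand), known for keratin turnover in skin and for binding kainate receptors, had 2211 and 2329 in CSB-depleted cells and 1389 and 1392 in control cells (log2 fold change 0.71 ± 0.05, adjusted p = 2.08e-06), with 1576 and 1534 in CSA-depleted cells (log2 fold change 0.16 ± 0.05, adjusted p = 0.0544).

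KLHL5 and KLHL23 were lower in CSB-depleted cells. KLHL5 had 755 and 785 in CSB-depleted cells and 999.6 and 968 in control cells (log2 fold change -0.35 ± 0.06, adjusted p = 0.000845). KLHL23 had 1192 and 1249 in CSB-depleted cells and 1569.5 and 1599 in control cells (log2 fold change -0.38 ± 0.06, adjusted p = 0.000427). The KLHL5 call was lost without control replicate 1 (adjusted p = 0.052). The KLHL23 call was lost without CSB replicate 1 or either control (highest adjusted p 0.0583). KLHL35 was weakly expressed, at 39 and 33.4 in CSA-depleted cells, 72.7 and 105 in CSB-depleted cells and 55.7 and 45.3 in control cells, and its call in CSB-depleted cells (log2 fold change 0.78 ± 0.23, adjusted p = 0.0258) was lost when any 1 of the 6 libraries was left out (highest adjusted p 0.266), and with only the groups compared in the fit or by DESeq2. Among other KLHL genes that rose in CSB-depleted cells were KLHL22, a regulator of amino acid sensing, and KLHL36 (log2 fold change 0.28 and 0.35). The KLHL22 call was lost without either CSB library or either control (highest adjusted p 0.0913), and by DESeq2. The KLHL36 call was lost without CSB replicate 2 or either control (highest adjusted p 0.0827). KLHL15 was lower in CSA-depleted cells (log2 fold change -0.37), a call lost without either CSA library or either control (highest adjusted p 0.164). KLHL12, which ubiquitinates the SEC31 coat protein, and KLHL3, a WNK kinase receptor, passed in neither comparison with control.

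FBXO45 (chr3:196568611-196589059, plus strand) had the largest fall of any member past the test in CSB-depleted cells. This F-box protein pairs with the large ligase MYCBP2 and is needed for axon and synapse development in mice. Its scaled counts were 528 and 607 in CSB-depleted cells and 1314 and 1275 in control cells (log2 fold change -1.19 ± 0.07, adjusted p = 3.92e-07). In CSA-depleted cells it had 1342 and 1259 (log2 fold change 0.01 ± 0.07, adjusted p = 0.993), which overlapped the control range, and it was the single F-box member lower in CSB-depleted cells. The call passed in every alternative, with adjusted p of at most 0.0281 when 1 library was left out.

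FBXO32 (atrogin-1), the muscle atrophy ligase, showed the largest difference between the knockdowns among the 128 members, at 86.7 and 67.7 in CSA-depleted cells, 235 and 254 in CSB-depleted cells and 121 and 115 in control cells. For FBXO32 the log2 fold change was -0.62 ± 0.14 for CSA (adjusted p = 0.00886) and 1.04 ± 0.14 for CSB (adjusted p = 0.000192). The 3 groups did not overlap. The FBXO32 call for CSA was lost without CSA replicate 2, either CSB library or either control (highest adjusted p 0.187), and with only the groups compared in the fit. The one for CSB was lost without either CSB library or either control (highest adjusted p 0.0858). FBXO10, a BCL2 receptor, and FBXO41, a neuronal F-box protein, rose in CSA-depleted cells. FBXO10 had 435 and 474 in CSA-depleted cells and 254 and 272 in control cells (log2 fold change 0.79 ± 0.09, adjusted p = 6.24e-05). FBXO41 had 1439 and 1540.2 in CSA-depleted cells and 999.6 and 1058 in control cells (log2 fold change 0.53 ± 0.06, adjusted p = 5.46e-05). Neither was called in CSB-depleted cells, where the values were 268 and 244 for FBXO10 and 935 and 945 for FBXO41. The deposited gene model of FBXO10 shares 48.0% of its exon bases with AL513165.2, another protein-coding entry on the same strand that no library lists.

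FBXO5 (EMI1), the inhibitor of the anaphase-promoting complex and a gene of cycling cells, had 926 and 838 in CSA-depleted cells, 1282 and 1237 in CSB-depleted cells and 1317 and 1205 in control cells (log2 fold change -0.52 ± 0.07, adjusted p = 0.000185 for CSA). Summed G2/M genes were lower in the same libraries, at 43290 to 45439 in CSA-depleted cells against 68996 to 69511 in control cells, and their part in the FBXO5 value was not tested. The call was lost without CSA replicate 2, CSB replicate 2 or control replicate 1 (highest adjusted p 0.0715), and with only the groups compared in the fit. FBXO31, a cyclin D1 receptor, had 831 and 978 in CSA-depleted cells and 671 and 561 in control cells (log2 fold change 0.55 ± 0.10, adjusted p = 0.00143). FBXO27, a glycoprotein receptor, had 275 and 267 in CSA-depleted cells and 201 and 219 in control cells (log2 fold change 0.37 ± 0.09, adjusted p = 0.0147). FBXO6, another glycoprotein receptor, had 40.1 and 60.1 in CSA-depleted cells and 77.6 and 86.8 in control cells (log2 fold change -0.73 ± 0.22, adjusted p = 0.0339). The FBXO31 call was lost without CSA replicate 2, either CSB library or either control (highest adjusted p 0.161), and with only the groups compared in the fit. The FBXO27 call was lost when any 1 of the 6 libraries was left out (highest adjusted p 0.127), and with only the groups compared in the fit or by DESeq2. The FBXO6 call was lost when any 1 of the 6 libraries was left out (highest adjusted p 0.32), and with no filter, with only the groups compared in the fit or by DESeq2.

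FBXO28 and FBXO36 were higher in both knockdowns. FBXO28, a receptor for topoisomerase II alpha, had 1495 and 1392 in CSA-depleted cells, 1349 and 1477 in CSB-depleted cells and 1145 and 1176 in control cells (log2 fold change 0.31 ± 0.06 for CSA and 0.28 ± 0.06 for CSB). FBXO36 had 209 and 237 in CSA-depleted cells, 194 and 199.7 in CSB-depleted cells and 141 and 158 in control cells (log2 fold change 0.57 ± 0.11 for CSA and 0.39 ± 0.11 for CSB). FBXO9, which degrades the kinase cofactors TELO2 and TTI1, had 1000.4 and 840.2 in CSA-depleted cells, 1327 and 1281 in CSB-depleted cells and 1115 and 1110.2 in control cells. For FBXO9 the log2 fold change was -0.28 ± 0.08 for CSA (adjusted p = 0.0223) and 0.23 ± 0.08 for CSB (adjusted p = 0.0475). The FBXO28 call for CSA was lost when any 1 of the 6 libraries was left out (highest adjusted p 0.152), and with only the groups compared in the fit. Its call for CSB was lost without CSA replicate 2, either CSB library or either control (highest adjusted p 0.154), and by DESeq2. The FBXO36 call for CSA was lost without CSA replicate 2, either CSB library or either control (highest adjusted p 0.112), and with only the groups compared in the fit. Its call for CSB was lost without CSA replicate 2, either CSB library or either control (highest adjusted p 0.204), and under TMM or length-corrected scaling, with only the groups compared in the fit or by DESeq2. The FBXO9 call for CSA was lost without CSA replicate 2, either CSB library or either control (highest adjusted p 0.271), and with only the groups compared in the fit. Its call for CSB was lost without either CSB library or either control (highest adjusted p 0.381), and under TMM, upper quartile or length-corrected scaling, with a pseudocount of 0.5, with no filter or by edgeR or DESeq2. FBXO15 was weakly expressed, at 58.4 and 80.0 in CSB-depleted cells and 41.8 and 42.4 in control cells (log2 fold change 0.69 ± 0.21, adjusted p = 0.0325), a call lost when any 1 of the 6 libraries was left out (highest adjusted p 0.214), and under TMM or length-corrected scaling, with only the groups compared in the fit or by DESeq2. FBXO22 rose in CSB-depleted cells (log2 fold change 0.31 ± 0.05, adjusted p = 0.00124), a call lost without either control (highest adjusted p 0.0598). Of FBXO22 exon bases, 16.2% are shared with NRG4 on the other strand. FBXO7, mutated in a form of parkinsonism, and FBXO11, a BCL6 receptor, passed in neither comparison.

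Among leucine-rich FBXL receptors, FBXL17 (chr5:107859035-108382098, minus strand), which dismantles wrongly paired BTB proteins, had 501 and 428 in CSA-depleted cells, 964 and 981 in CSB-depleted cells and 772 and 798 in control cells. For FBXL17 the log2 fold change was -0.76 ± 0.08 for CSA (adjusted p = 2.26e-05) and 0.31 ± 0.08 for CSB (adjusted p = 0.0112). The groups did not overlap. The call in CSB-depleted cells was lost without either CSB library or either control (highest adjusted p 0.238), and by DESeq2. FBXL7, a receptor for Aurora A, had 806 and 874 in CSA-depleted cells and 1338 and 1285 in control cells (log2 fold change -0.64 ± 0.06, adjusted p = 1.23e-05), and 1458 and 1492 in CSB-depleted cells (log2 fold change 0.17 ± 0.06, adjusted p = 0.063).

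The upstream stretches of KLHL29 and FBXL17 are shown because KLHL29 was raised in both knockdowns and FBXL17 moved in opposite directions. They come from the same RefSeq table and build, at chr2:23384929-23385178, plus strand for KLHL29 and chr5:108382099-108382348, minus strand for FBXL17. Capitals mark CCAAT read on the opposite strand, which occurs once upstream of KLHL29.
KLHL29: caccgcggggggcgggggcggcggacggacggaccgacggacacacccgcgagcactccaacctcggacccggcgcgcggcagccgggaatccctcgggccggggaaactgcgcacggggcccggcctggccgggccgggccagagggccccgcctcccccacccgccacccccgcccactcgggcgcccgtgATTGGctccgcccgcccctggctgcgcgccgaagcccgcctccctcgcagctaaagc
FBXL17: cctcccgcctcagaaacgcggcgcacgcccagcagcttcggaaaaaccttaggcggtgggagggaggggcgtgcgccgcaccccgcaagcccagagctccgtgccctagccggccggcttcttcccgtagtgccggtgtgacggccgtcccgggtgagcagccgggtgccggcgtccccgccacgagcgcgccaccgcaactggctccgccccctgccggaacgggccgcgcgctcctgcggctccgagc

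FBXL12, FBXL16 and FBXL19 were higher in both knockdowns. FBXL19, a CpG-island-binding F-box protein, had 3356 and 4134 in CSA-depleted cells, 3903 and 4109 in CSB-depleted cells and 3110.2 and 3006 in control cells (log2 fold change 0.28 ± 0.08 for CSA and 0.39 ± 0.08 for CSB). FBXL16 had 2833 and 3048 in CSA-depleted cells, 3049 and 2939 in CSB-depleted cells and 2434 and 2319.8 in control cells (log2 fold change 0.31 ± 0.05 for CSA and 0.33 ± 0.05 for CSB). FBXL12 had 646 and 616 in CSA-depleted cells, 729 and 728 in CSB-depleted cells and 559 and 521 in control cells (log2 fold change 0.23 ± 0.07 for CSA and 0.43 ± 0.07 for CSB). All knockdown libraries of these 3 genes lay above both controls. The FBXL19 call for CSA was lost without CSA replicate 2, either CSB library or either control (highest adjusted p 0.342), and with no filter or with only the groups compared in the fit. The FBXL16 call for CSA was lost without CSA replicate 2, either CSB library or either control (highest adjusted p 0.116), and with only the groups compared in the fit. The FBXL12 call for CSA was lost when any 1 of the 6 libraries was left out (highest adjusted p 0.215), and with only the groups compared in the fit or by DESeq2. In CSB-depleted cells the FBXL19 and FBXL16 calls were lost without either CSB library or either control (highest adjusted p 0.267 and 0.0906), and that of FBXL12 without either CSB library (highest adjusted p 0.0621). FBXL14, a receptor for the Snail transcription factor, was higher in CSB-depleted cells, at 923 and 884 against 677 and 673 in control cells (log2 fold change 0.42 ± 0.08, adjusted p = 0.00149), a call lost without either CSB library or either control (highest adjusted p 0.133). FBXL5, the iron sensor of the family, was not called, at 994 and 935 in CSA-depleted cells, 940.2 and 981 in CSB-depleted cells and 976 and 979 in control cells.

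Among WD40-repeat FBXW receptors, FBXW11 (beta-TrCP2), which degrades phosphorylated beta-catenin and IkB, had 1717 and 1752 in CSA-depleted cells and 2353 and 2443 in control cells (log2 fold change -0.47 ± 0.05, adjusted p = 3.7e-05). Its value in CSB-depleted cells was 2614 and 2569.9 (log2 fold change 0.11 ± 0.05, adjusted p = 0.139). Its paralogue BTRC (beta-TrCP1), outside the naming rule, was higher in CSA-depleted cells, at 952 and 871 against 683 and 732 in control cells (log2 fold change 0.36 ± 0.07, adjusted p = 0.00267), a call lost when any 1 of the 6 libraries was left out (highest adjusted p 0.126), and with only the groups compared in the fit. FBXW5 and FBXW4 rose in CSB-depleted cells. FBXW5 had 2888 and 2710.2 in CSB-depleted cells and 2062 and 2097 in control cells (log2 fold change 0.43 ± 0.05, adjusted p = 0.000111). FBXW4 had 869.8 and 882 in CSB-depleted cells and 599 and 613 in control cells (log2 fold change 0.53 ± 0.08, adjusted p = 0.000301). The FBXW4 call was lost without either control or either CSB library (highest adjusted p 0.108), and that of FBXW5 without control replicate 1 (adjusted p = 0.0500168). FBXW7, the receptor for cyclin E and MYC, had 875 and 877 in CSA-depleted cells, 946 and 948 in CSB-depleted cells and 844 and 810.2 in control cells. Its call in CSB-depleted cells (log2 fold change 0.19 ± 0.06, adjusted p = 0.0301) was lost without either CSB library or either control (highest adjusted p 0.152), and under TMM, upper quartile or length-corrected scaling or by edgeR or DESeq2.

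**Figure D3:**
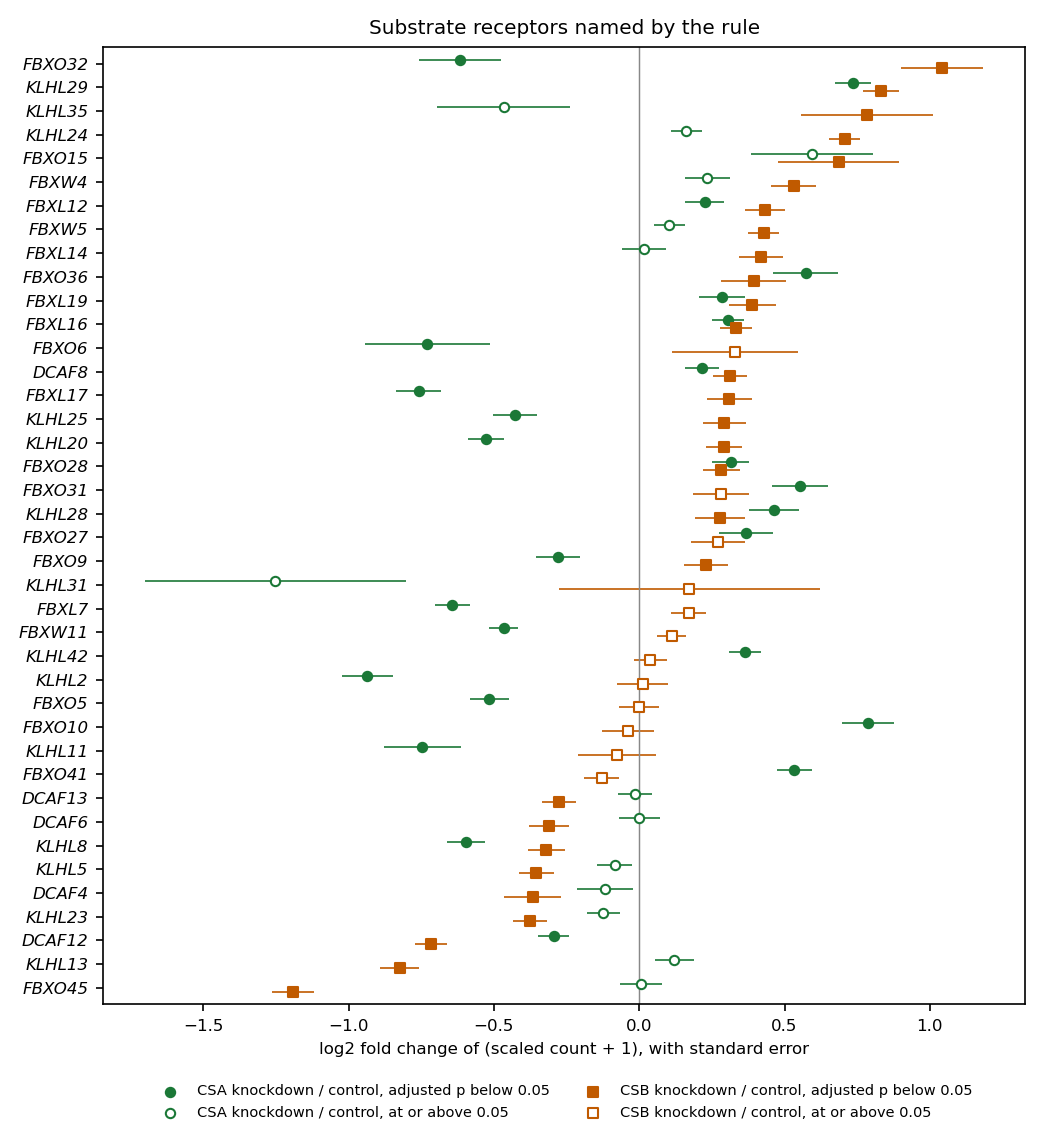
Log2 fold change with standard error of each substrate receptor named by the rule, for CSA knockdown (circles) and CSB knockdown (squares) over the shared control; filled symbols passed an adjusted p of 0.05. FBXO45 and KLHL13 lie far left for CSB-depleted cells alone, KLHL2 for CSA-depleted cells alone, and KLHL29 lies to the right for both.

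Compared directly, CSB-depleted cells had 32 members higher and 22 lower than CSA-depleted cells, 43.5% of those tested, where 29.4% of all genes, 45.6% of protein-coding genes and 54.8% of well-expressed protein-coding genes were called. In the background 18.1% of all genes were higher and 11.3% lower, and 32.9% and 21.9% of the well-expressed. The share of member calls that were higher was 59.3% as deposited, 45.5% with TMM, 51.9% with upper quartile scaling, 40.4% with the length correction, 45.0% by edgeR and 44.7% by DESeq2. KLHL genes were higher in 12 and lower in 4 of 31, with a median of 0.28, a median that stayed above 0 under every scaling run. F-box genes were higher in 18 and lower in 6 of 60, with a median of 0.10 as deposited and -0.02 (12 higher and 11 lower) with the length correction. All genes tested had medians of 0.09 as deposited and -0.02 with the length correction, so the F-box medians were close to those of all genes. Leaving out 1 library gave 6 to 15 higher and 4 to 6 lower F-box genes, and 7 to 12 higher and 2 to 4 lower KLHL genes. In the core CUL1, CUL2, CUL5 and DDB1 were lower, with log2 fold changes of -0.49, -0.56, -0.37 and -0.32, and all 4 calls held with any 1 library left out. In the COP9 signalosome COPS3 (-0.59), COPS7B (-0.51), COPS8 (-0.19) and COPS7A (-0.18) were lower. The COPS8 call was lost when any 1 of the 6 libraries was left out (highest adjusted p 0.247), and with only the groups compared in the fit. The COPS7A call was lost without either CSA library, CSB replicate 1 or either control (highest adjusted p 0.172), and with no filter, with only the groups compared in the fit or with the replicate block. This comparison does not use the control values, though the control libraries enter the estimate of spread.

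Receptors higher in CSB-depleted than in CSA-depleted cells included FBXO32 (log2 fold change 1.66 ± 0.14, adjusted p = 2.23e-06) and FBXL17 (log2 fold change 1.07 ± 0.08, adjusted p = 5.19e-07). KLHL2 (log2 fold change 0.95 ± 0.09, adjusted p = 4.38e-06), KLHL20 (log2 fold change 0.82 ± 0.06, adjusted p = 6.45e-07) and FBXL7 (log2 fold change 0.81 ± 0.06, adjusted p = 6.56e-07) were also higher there. FBXO45 (log2 fold change -1.20 ± 0.07, adjusted p = 1.16e-07), KLHL13 (log2 fold change -0.94 ± 0.07, adjusted p = 4.3e-07), FBXO10 (log2 fold change -0.83 ± 0.09, adjusted p = 1.82e-05) and FBXO41 (log2 fold change -0.66 ± 0.06, adjusted p = 3.73e-06) were lower in CSB-depleted cells, and these 9 calls passed in every alternative run. KLHL20, a CUL3 receptor for PML and DAPK1, had 1089 and 1046 in CSB-depleted cells and 593 and 616 in CSA-depleted cells, with controls between at 880.3 and 863. Against control KLHL20 was lower in CSA-depleted cells (log2 fold change -0.53 ± 0.06, adjusted p = 6.32e-05) and higher in CSB-depleted cells (log2 fold change 0.29 ± 0.06, adjusted p = 0.00378), the second call being lost without CSB replicate 1 or either control (highest adjusted p 0.0822), and by DESeq2. KLHL25, which targets lipid synthesis enzymes, had 956 and 893 in CSB-depleted cells and 535 and 587 in CSA-depleted cells (log2 fold change 0.72 ± 0.08, adjusted p = 1.28e-05), with 715 and 795 in control cells. Its call against control for CSA (log2 fold change -0.43 ± 0.08, adjusted p = 0.00158) was lost when any 1 of the 6 libraries was left out (highest adjusted p 0.115), and with only the groups compared in the fit. The one for CSB (log2 fold change 0.29 ± 0.08, adjusted p = 0.0136) was lost when any 1 of the 6 libraries was left out (highest adjusted p 0.237), and under TMM or length-corrected scaling, with only the groups compared in the fit or by DESeq2. KLHL31 differed as well (log2 fold change 1.43 ± 0.45, adjusted p = 0.0311) on 28.6 and 28.9 in CSB-depleted cells and 5.42 and 18.1 in CSA-depleted cells, a call lost without CSA replicate 1, either CSB library or either control (highest adjusted p 0.335), and with no filter, with only the groups compared in the fit or by DESeq2.

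**Figure D4:**
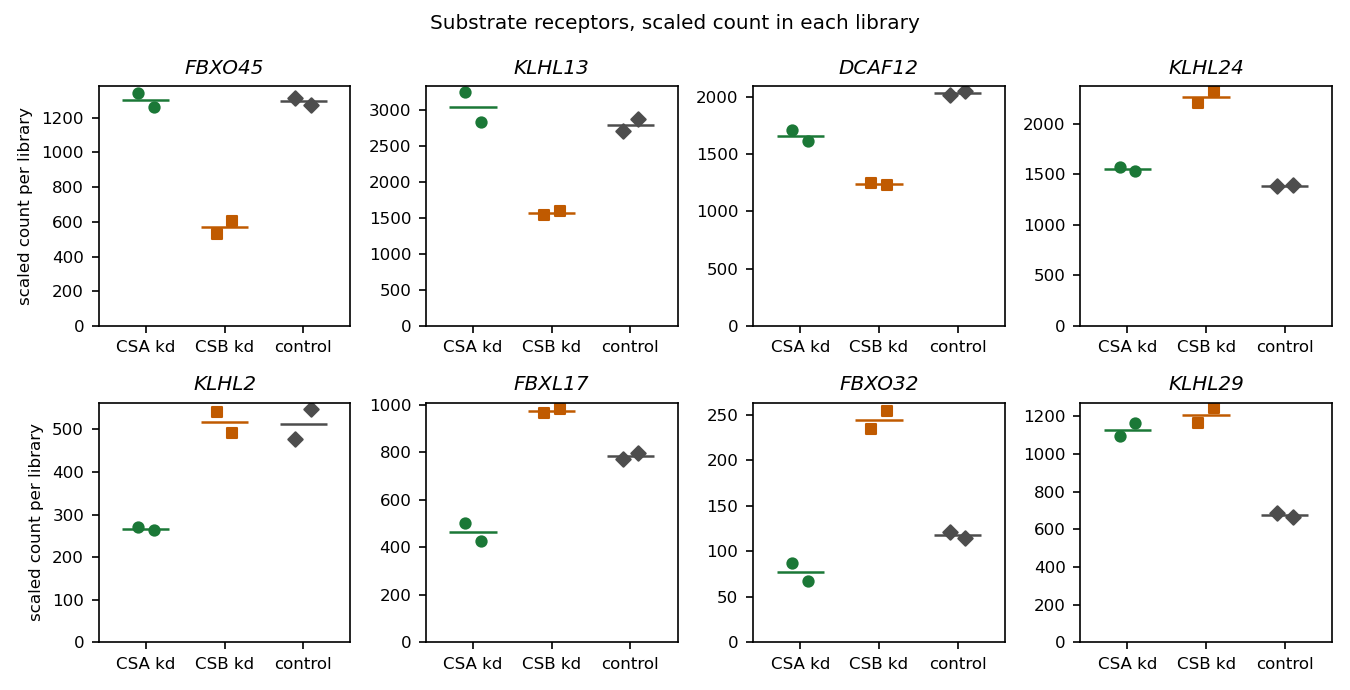
Scaled count per library (axes from 0) of 8 substrate receptors, with 2 points per group and a bar at the group mean, for CSA knockdown, CSB knockdown and control from left to right. FBXO45 and KLHL13 are low in CSB-depleted cells, KLHL2 is low in CSA-depleted cells, KLHL29 is above control in both, and FBXL17 and FBXO32 lie below control in CSA-depleted cells and above it in CSB-depleted cells.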

How the data were processed

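Total RNA of SH-SY5Y cells was made into 6 libraries with a TruSeq RNA kit, per the labels' protocols, and sequenced. The submitters' processing notes name FastQC, HISAT2 2.0.4 and hg38, but give no counting tool, strand setting or annotation release. The deposited signal is a normalised count per gene headed FPKM in the files, but no gene length enters it: 100% of the deposited values in each library were whole multiples of 1 step (tolerance 0.01 of a step), so that each value is a read count divided by a library size factor. These values are called scaled counts, and recovered reads totalled 19368272 to 26758162 per library. Gene lengths and coordinates are those the authors deposited.

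Because the values are neither raw counts nor FPKM, log2(scaled count + 1) was tested with limma 3.58.1 (mean-variance trend, R 4.3.3) across all 6 libraries and the 28388 genes with a mean of at least 1 in at least 1 group, leaving 3 residual degrees of freedom. P-values were adjusted by Benjamini-Hochberg over all genes, and "called" means an adjusted p below 0.05. Errors of log2 fold changes are standard errors, and intervals are 95%. The procedure was tested on simulated data whose spread between libraries was fixed in advance and not taken from these libraries. That test therefore does not show how often the calls here are right. Python 3.11.15, pandas 2.3.3 and matplotlib 3.10.9 were used for joins and figures.

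Members, gene lists and the naming rule were chosen with earlier results of these data known. The rule names ERCC8 and ERCC6, every core gene and COP9 subunit, the 10 largest receptor rises and falls against control, the 6 largest in each direction between knockdowns, and members called in both comparisons with control. Other genes were named for their role or after their values were seen. Genes of other types with matching names (12) were left out. The lists hold genes of neddylation and exchange, adaptors and ubiquitin-transfer partners, F-box, BTB and CUL4 receptors named otherwise, and CUL2 and CUL5 receptors.

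Alternatives were pseudocounts of 0.5 and 5, no filter, a minimum mean of 10, TMM and upper quartile scaling, removal of a gene length trend, a fit of only the groups compared, a replicate block, edgeR 4.0.16 and DESeq2 1.42.0 on the recovered reads, and leaving out each library. Exon overlaps were read from the reference annotation, and promoters from RefSeq (GRCh38.p14).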

Additional observations from a re-analysis of the deposited data

Results flagged for a closer look

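The members and the other genes described in the text were searched for opposite calls. Some of those other genes were named after their values were seen, and the share among all genes was not counted. In 12 genes, CSA-depleted cells and CSB-depleted cells were called in opposite directions against control, and the direct comparison of the knockdowns also passed. In 10 of them CSB was the higher knockdown. Over all genes tested, 18.1% were higher and 11.3% lower in CSB-depleted than in CSA-depleted cells, with a median log2 fold change of 0.09. Only for LMO7 and DDB2 did both calls against control pass in every alternative. Among members these were FBXO32 (log2 fold change of CSB over CSA knockdown 1.66), FBXL17 (1.07), KLHL20 (0.82), KLHL25 (0.72) and FBXO9 (0.51). Outside the naming rule they were LMO7 (1.87), DDB2 (1.13), DCUN1D2 (0.93), VHL (0.74) and KDM2B (0.72). In TNFAIP1 (-0.75) and KBTBD8 (-0.81) CSB-depleted cells had the lower level. KBTBD8, a CUL3 receptor known for ribosome biogenesis in neural crest, had scaled counts of 93.6 and 101 in CSB-depleted cells and 168 and 175 in CSA-depleted cells, with 134 and 124 in control cells. Its call for CSA was lost when any 1 of the 6 libraries was left out (highest adjusted p 0.197), and with a pseudocount of 5, with only the groups compared in the fit, with the replicate block or by DESeq2. The one for CSB was lost when any 1 of the 6 libraries was left out (highest adjusted p 0.162), and with only the groups compared in the fit or by DESeq2.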

How the results depend on the processing

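Of the counts of members called, 20 higher and 19 lower in CSA-depleted cells became 9 and 9 when only the CSA and control libraries were fitted. The 31 members higher in CSB-depleted cells than in control cells became 19 with a gene length trend removed and 14 by DESeq2. Between the knockdowns, the 32 members higher in CSB-depleted cells became 21 by DESeq2, and the 22 lower became 34 with the length trend removed. Leaving out 1 library gave 3 to 14 higher and 6 to 14 lower in CSA-depleted cells, 4 to 30 higher and 8 to 18 lower in CSB-depleted cells, and 14 to 26 higher and 15 to 19 lower for CSB against CSA. Where an omission leaves 1 library in a group, that library is assumed to vary like the others. The cause of these shifts was not tested. Each omission lowers the residual degrees of freedom for every gene, and the share of all genes' calls lost was not counted. Losses of calls are therefore not read as particular to the members. Calls that passed in every alternative numbered 3 of 20 higher and 6 of 19 lower in CSA-depleted cells, 3 of 31 and 7 of 17 in CSB-depleted cells, and 12 of 32 and 13 of 22 for CSB against CSA. For the fold changes of genes named in the text, 4517 values under the alternatives kept their side of the threshold, 566 lost the call and 118 gained one. No value called in the main fit or in the alternative changed sign. For values called in neither, direction was not compared. Same-numbered libraries did not deviate together (correlations of -0.0316, -0.0402 and -0.0323 over 13397 genes), so the numbers are not read as pairs. With a replicate block 40 members were called in CSA-depleted cells, 49 in CSB-depleted cells and 54 for CSB against CSA, against 39, 48 and 54 without it. Precision is limited by the 2 libraries in each group, and few reads stand behind the 14 tested members with mean scaled counts under 50.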

Other observations

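Receptors of CUL2 and CUL5, which the naming rule does not cover, were lower more often than higher in CSA-depleted cells (7 higher and 12 lower of 38 tested, median log2 fold change -0.15) and higher more often than lower in CSB-depleted cells (12 higher and 1 lower, median 0.11, where all genes had 0.10). Among well-expressed protein-coding genes, 16.2% were higher and 21.2% lower in CSA-depleted cells, and 28.2% higher and 18.6% lower in CSB-depleted cells. Over all genes tested the shares were 8.37% higher and 10.4% lower in CSA-depleted cells, and 14.8% higher and 8.86% lower in CSB-depleted cells. The counts of this and the other gene lists come from the main fit alone. Their dependence on scaling or on single libraries was not examined. VHL, the receptor that destroys hypoxia-inducible factors, had scaled counts of 1585 and 1683 in CSA-depleted cells, 2737 and 2714 in CSB-depleted cells and 2363 and 2414 in control cells. For VHL the log2 fold change was -0.55 ± 0.05 for CSA (adjusted p = 1.37e-05) and 0.19 ± 0.05 for CSB (adjusted p = 0.0188). The VHL call in CSB-depleted cells was lost without either CSB library or either control (highest adjusted p 0.163), and under TMM, upper quartile or length-corrected scaling or by edgeR or DESeq2. FEM1B, a receptor that senses reductive stress, was lower in both, at 1657 and 1520.1 in CSA-depleted cells, 989.8 and 1021 in CSB-depleted cells and 2039 and 2044 in control cells (log2 fold change -0.36 ± 0.06, adjusted p = 0.000789 for CSA and log2 fold change -1.02 ± 0.06, adjusted p = 2.48e-07 for CSB), with the CSA call lost without CSB replicate 2 or either control (highest adjusted p 0.0862). SPSB4, a SOCS-box receptor, was higher in both, at 801 and 871 in CSA-depleted cells, 582 and 483 in CSB-depleted cells and 399.8 and 388 in control cells (log2 fold change 1.08 ± 0.09 for CSA and 0.43 ± 0.09 for CSB), with the CSB call lost without either CSA library, CSB replicate 1 or either control (highest adjusted p 0.156), and with only the groups compared in the fit.

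Of 23 BTB receptors named otherwise, 4 were higher and 7 lower in CSA-depleted cells (median -0.08), and 4 higher and 2 lower in CSB-depleted cells (median 0.02). The shares of well-expressed protein-coding genes were 16.2% higher and 21.2% lower for CSA, and 28.2% higher and 18.6% lower for CSB. ENC1, a neuronal actin-binding relative of the KLHL family, had 454 and 403 in CSA-depleted cells and 1507 and 1461 in control cells (log2 fold change -1.79 ± 0.07, adjusted p = 1.17e-08), a larger fall than that of any tested member in this comparison. CSB-depleted cells had 1605 and 1592 (log2 fold change 0.11 ± 0.07, adjusted p = 0.295). KCTD5, which acts on G protein beta-gamma subunits, was lower in CSA-depleted cells at 637 and 668 against 1135 and 1173 in control cells (log2 fold change -0.82 ± 0.06, adjusted p = 1.4e-06). KCTD7, mutated in a progressive myoclonic epilepsy, was higher there at 1967 and 1928 in CSA-depleted cells and 939.9 and 998 in control cells (log2 fold change 1.01 ± 0.06, adjusted p = 4.48e-07). KCTD13 and TNFAIP1 are paralogues that act on RhoA. KCTD13 was higher in both knockdowns, at 1091 and 1174 in CSA-depleted cells, 1656 and 1525 in CSB-depleted cells and 836 and 831 in control cells (log2 fold change 0.44 ± 0.06 for CSA and 0.93 ± 0.06 for CSB), with the CSA call lost without CSA replicate 2 or either control (highest adjusted p 0.0747). TNFAIP1 had 2429 and 2554 in CSA-depleted cells, 1481 and 1482 in CSB-depleted cells and 1843 and 1741 in control cells (log2 fold change 0.48 ± 0.05, adjusted p = 6.11e-05 for CSA and log2 fold change -0.27 ± 0.05, adjusted p = 0.00278 for CSB), with the CSB call lost without either CSB library or either control (highest adjusted p 0.102).

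Of 9 F-box receptors named otherwise, 2 were higher and 3 lower in CSA-depleted cells (median 0.05), and 3 higher and 1 lower in CSB-depleted cells (median 0.29, where all genes had 0.10). Over all genes 8.37% were higher and 10.4% lower for CSA, and 14.8% higher and 8.86% lower for CSB, and over well-expressed protein-coding genes 16.2% and 21.2% for CSA and 28.2% and 18.6% for CSB. LMO7, which also carries LIM and PDZ domains, had 307 and 288 in CSA-depleted cells, 1076 and 1099 in CSB-depleted cells and 596 and 589 in control cells. For LMO7 the log2 fold change was -0.99 ± 0.07 for CSA (adjusted p = 8.97e-07) and 0.87 ± 0.07 for CSB (adjusted p = 2.44e-06). SKP2, the receptor for the cell cycle inhibitor p27, was lower in both (log2 fold change -0.21 ± 0.06 for CSA and -0.28 ± 0.06 for CSB). The SKP2 call for CSA was lost without CSA replicate 2, either CSB library or either control (highest adjusted p 0.236), and under upper quartile or length-corrected scaling or with only the groups compared in the fit. The one for CSB was lost without either CSB library or either control (highest adjusted p 0.16). KDM2B, a histone demethylase with an F-box, had 999 and 1057 in CSA-depleted cells, 1691 and 1684 in CSB-depleted cells and 1217 and 1319.5 in control cells. For KDM2B the log2 fold change was -0.30 ± 0.06 for CSA (adjusted p = 0.00353) and 0.41 ± 0.06 for CSB (adjusted p = 0.000316). The KDM2B call for CSA was lost when any 1 of the 6 libraries was left out (highest adjusted p 0.113), and with only the groups compared in the fit. The one for CSB was lost without either CSB library or control replicate 1 (highest adjusted p 0.0756).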
